A study of Homo sapiens with 4 samples.

Results

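The genes followed here are 10 growth factor signalling genes: the EGF receptor family members EGFR, ERBB2 and ERBB3, the ligands AREG, EREG, TGFA and HBEGF, and the receptor tyrosine kinases MET, IGF1R and FGFR4. They were chosen by name, with earlier results of these data known. All 10 were found among the 60612 genes in the deposited tables of both cell lines. The study measured poly(A)-selected RNA by paired-end sequencing in HCT116 and RKO, established human colorectal cancer lines, either wildtype for AVEN (WT) or overexpressing it (OE). There are 4 libraries, a WT and an OE library of each line, so each group holds 1 library. How the overexpression was made, whether OE cells were a clone or a pool, and what vector the WT cells carried are not given in the sources used here. AVEN encodes an inhibitor of caspase activation.

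EGFR, ERBB2 and ERBB3 are cell surface receptors that signal as dimers. Ligands such as amphiregulin (AREG), epiregulin (EREG), TGF-alpha (TGFA) and heparin-binding EGF (HBEGF) are made as membrane-bound precursors, released by ADAM proteases, and bind EGFR. EREG and HBEGF also bind ERBB4. ERBB2 has no known ligand and ERBB3 has little kinase activity, so both act as dimer partners. MET is the receptor for hepatocyte growth factor (HGF), IGF1R for the insulin-like growth factors, and FGFR4 for FGF19, which binds it together with beta-klotho (KLB). All of them feed the RAS-ERK and PI3K-AKT cascades, and in the intestine EGFR ligands support growth of the epithelium.

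Promoters are shown for AREG and EREG, which differed most between the lines, and for MET, the member that was at least 2-fold lower in an OE library. The sequences are from RefSeq on GRCh38.p14, which holds promoters for 9 of the 10 genes, and run from 250 bases before to 50 bases after the annotated start, 5′ to 3′. All 3 lie on the plus strand, AREG at chr4:74444886-74445185, EREG at chr4:74364895-74365194 and MET at chr7:116671946-116672245. Capitals mark matches, on either strand, to 5 short motifs, the cyclic AMP response element, the AP-1 site, the GC box, the TATA box and the E-box, whose letters are given with the matches.
AREG: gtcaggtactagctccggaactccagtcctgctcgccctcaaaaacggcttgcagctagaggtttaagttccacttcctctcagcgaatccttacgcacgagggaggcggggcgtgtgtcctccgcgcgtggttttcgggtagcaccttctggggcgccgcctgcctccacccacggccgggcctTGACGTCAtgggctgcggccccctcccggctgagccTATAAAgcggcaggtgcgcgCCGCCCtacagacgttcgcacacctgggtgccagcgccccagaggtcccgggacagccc
EREG: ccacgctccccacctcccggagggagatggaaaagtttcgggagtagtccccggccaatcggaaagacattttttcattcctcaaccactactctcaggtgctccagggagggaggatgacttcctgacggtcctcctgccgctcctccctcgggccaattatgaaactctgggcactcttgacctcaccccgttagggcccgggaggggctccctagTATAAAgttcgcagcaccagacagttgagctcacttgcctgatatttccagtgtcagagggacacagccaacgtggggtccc
MET: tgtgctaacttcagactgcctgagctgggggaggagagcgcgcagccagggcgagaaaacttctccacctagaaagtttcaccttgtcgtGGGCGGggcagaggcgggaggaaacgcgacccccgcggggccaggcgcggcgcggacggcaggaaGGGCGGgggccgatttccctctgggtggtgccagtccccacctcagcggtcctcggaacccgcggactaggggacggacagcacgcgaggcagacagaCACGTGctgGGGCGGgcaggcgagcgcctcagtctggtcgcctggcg
The annotated gene starts of AREG and EREG lie 79991 bases apart on chromosome 4. The AREG and EREG windows each hold a TATA box, spelled TATAAA, its first base at -29 in AREG and -32 in EREG counted from the start, a motif in 11.5% of 35116 human promoters of the same length. The AREG window also holds a cyclic AMP response element, TGACGTCA, at -65, found in 1.85% of promoters. It also holds a GC box on the minus strand, whose letters GGGCGG were found in 45.0%. The MET window holds no TATA box, 3 GC boxes and an E-box, spelled CACGTG and found in 7.26% of promoters. The AP-1 site TGANTCA, in 7.71% of promoters, was not matched in these 3 windows, and no matches overlapped. The AREG window contains 27 CG dinucleotides and that of MET 30, against 12 in EREG and a median of 14 over all promoters. These matches describe the letters and do not show that any factor binds.

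Levels are the authors' FPKM values, fragments scaled by transcript length and library size, and can be compared between genes because they are per length. A fragment on a transcript of 1 kilobase was worth 0.0482 to 0.0537 FPKM, as read from the lowest values of genes with 1 exon. Intervals in brackets are exact 95% counting intervals from fragments estimated with this step. They cover counting error only and say nothing of how separate cultures would vary. AVEN stood at 1.53 FPKM in HCT116 WT and 2.96 in OE, and at 1.34 in RKO WT and 4.43 in OE. Of 10 epithelial and colorectal markers, 6 reached 1 FPKM in each HCT116 library and 4 in each RKO library. CDX2 was present in both lines (4.38 to 5.44 FPKM), whereas RKO had almost no E-cadherin (CDH1, at most 0.00834 FPKM) or KRT19 (at most 0.0659), and VIL1, CDX1 and LGALS4 stayed under 0.1 FPKM in all 4 libraries. Adipose markers, checked because the protocol text names adipose tissue, summed to at most 0.09 FPKM. Endothelial markers summed to at most 0.0845 FPKM and fibroblast markers to at most 2.81, nearly all of it COL1A1. The macrophage marker CD68 stood at 197 and 195 FPKM in RKO, while PTPRC, which marks blood cells in general, was at most 0.0329.

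AREG and EREG had the widest gaps between the lines among the 10 genes. AREG stood at 186 FPKM (WT) and 139 FPKM (OE) in HCT116, against 0.969 and 0.217 in RKO. It was the highest of the 10 genes in HCT116, at place 181 among all genes of the WT library. Set side by side, the WT libraries differed 192-fold (122 to 308), although the tables of the lines were made separately and no test was run between them. EREG stood at 35.6 and 40.6 FPKM in HCT116 WT and OE and at 0.0169 and 0.00891 in RKO. The RKO values rest on about 1 and 0 fragments, under the limit of 3 fragments, which are worth 0.0676 and 0.0704 FPKM there. EREG was therefore not detectable in RKO at this depth. No values of the lines overlapped for either gene.

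TGFA was also higher in HCT116, at 8.71 FPKM in WT and 10.2 in OE, against 2.22 and 2.52 in RKO. The WT libraries differed 3.93-fold (2.88 to 5.49) and the OE libraries 4.04-fold (2.996 to 5.48). HBEGF was the ligand with the smallest difference between lines, at 3.49 and 3.06 FPKM in HCT116 WT and OE and 4.54 and 4.12 in RKO WT and OE. Its ratio of RKO to HCT116 was 1.303 (0.987 to 1.72) in WT, an interval that includes 1, and 1.35 (1.018 to 1.81) in OE, where it was 1.13 after rescaling without mitochondrially encoded RNA. Mitochondrially encoded RNA made up 44.7% and 45.6% of summed FPKM in HCT116 and 32.8% and 30.3% in RKO. Of FPKM times transcript length, the share used for rescaling, it made up 33.5% and 34.4% in HCT116 and 22.6% and 21.6% in RKO. Rescaling without that share multiplied every ratio of HCT116 WT to RKO WT by the same factor, giving 224-fold for AREG and 4.57-fold for TGFA.

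**Figure D1:**
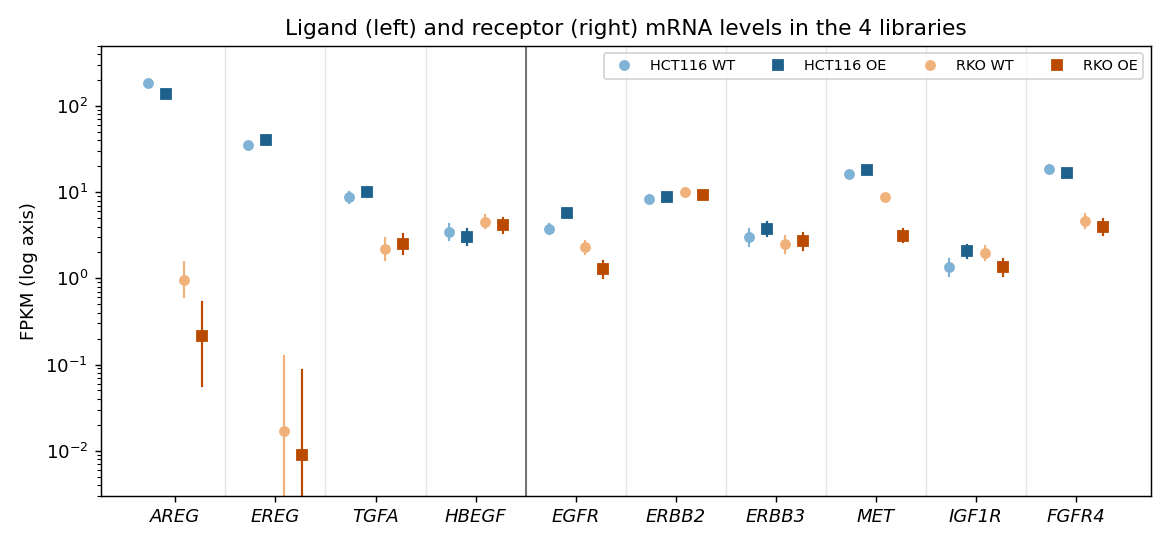
FPKM on a log axis for the 4 ligands and 6 receptors in each library; points are the libraries and bars the 95% counting intervals, which run to the axis where they reach 0. AREG and EREG lie above 30 FPKM in HCT116 and below 1 FPKM in RKO, while ERBB2, ERBB3 and HBEGF lie close together in all 4 libraries.

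The makeup of the ligand mRNA differed accordingly. Over 7 EGFR ligand genes, with BTC, EGF and EPGN added to the 4 members, summed FPKM was 235 (WT) and 194 (OE) in HCT116 and 8.17 and 7.14 in RKO. AREG made up 79.4% of that sum in HCT116 WT and 71.8% in OE, and EREG 15.2% and 20.9%. In RKO, HBEGF made up 55.6% in WT and 57.7% in OE, followed by TGFA with 27.1% and 35.3%. BTC, which encodes betacellulin, reached 5.08% of the sum in RKO WT, where it stood at 0.416 FPKM. EGF was at most 0.0884 FPKM in any library.

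**Figure D2:**
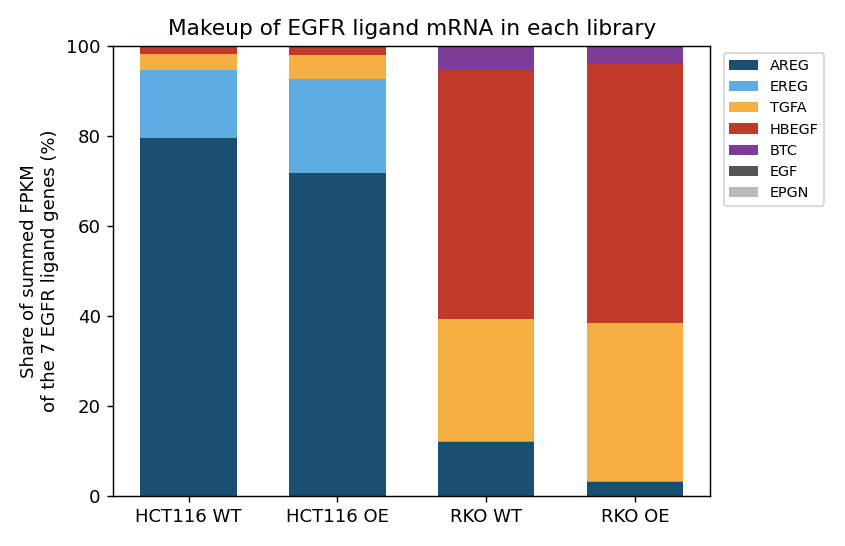
Stacked bars give the share of summed FPKM held by each of 7 EGFR ligand genes in each library, in percent. AREG holds 79.4% and 71.8% in HCT116 WT and OE, and HBEGF holds 55.6% and 57.7% in RKO WT and OE.

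Among the receptors, ERBB2 was nearly level across libraries, at 8.41 and 8.84 FPKM in HCT116 WT and OE and at 10.1 and 9.24 in RKO WT and OE. It was the highest of the 10 genes in both RKO libraries. Its exons overlap those of MIEN1 and PGAP3 on the opposite strand, and whether the counts used strand is not given. ERBB3 stood at 2.99 and 3.78 FPKM in HCT116 and at 2.52 and 2.71 in RKO. ERBB4 was at most 0.0037 FPKM, so ERBB2 held 48.1% to 69.8% of the summed receptor level of the family in each library.

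EGFR was lower than ERBB2 and ERBB3 in both RKO libraries, although its counting interval overlapped that of ERBB3 in WT. It stood at 3.76 FPKM (WT) and 5.77 FPKM (OE) in HCT116 and at 2.31 and 1.28 in RKO. The HCT116 and RKO values did not overlap, and the ratio between lines was 1.63 (1.32 to 2.04) in WT and 4.51 (3.51 to 5.88) in OE. FGFR4 stood at 18.8 and 16.6 FPKM in HCT116 and at 4.62 and 3.96 in RKO, a ratio of 4.06 (3.30 to 5.04) in WT. MET stood at 16.4 and 18.2 FPKM in HCT116 and at 8.75 and 3.14 in RKO. IGF1R was low throughout, at 1.35 and 2.05 FPKM in HCT116 and 1.97 and 1.36 in RKO, and its values in the lines overlapped.

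The order of the levels also differed between the lines. In HCT116 WT it ran AREG, EREG, FGFR4, MET, TGFA, ERBB2, EGFR, HBEGF, ERBB3, IGF1R, and the counting intervals of FGFR4 and MET, of TGFA and ERBB2, and of EGFR, HBEGF and ERBB3 in turn overlapped their neighbours'. In RKO WT it ran ERBB2, MET, FGFR4, HBEGF, ERBB3, EGFR, TGFA, IGF1R, AREG, EREG. There the neighbours ERBB2 and MET overlapped, as did FGFR4 and HBEGF, and the run from ERBB3 to IGF1R.

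The next question was which of these genes differed between OE and WT within a line. Differences were taken as log2((OE + 1)/(WT + 1)) of FPKM, a scale that understates the change of low genes, and a gene was called when it was at least 2-fold different on that scale with a mean of at least 1 FPKM. With 1 library per group there is no replicate check and no p-value. In HCT116 none of the 10 members was called, against 232 of 11333 genes (2.05%). In RKO 1 member of the 8 that passed the expression minimum was called, MET, against 358 of 11007 genes (3.25%), 143 higher and 215 lower in OE (the lower ones 1.95%). After centring on the median of all genes in RKO the split was 171 higher and 163 lower, and MET was still called. The authors' deposited table marked none of the 10 members in HCT116, against 254 of 60612 genes (0.419%). In RKO it marked MET alone, against 341 (0.563%). Those shares are over all listed genes, of which 10737 (RKO OE) to 11418 (HCT116 OE) reached 1 FPKM in a library.

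In HCT116 the largest shift among the members was that of EGFR, 1.53-fold higher in OE (1.29 to 1.82), with a log2 difference of 0.51. IGF1R was 1.53-fold higher (1.13 to 2.04), from about 77 and 130 fragments. AREG was 1.34-fold lower in OE (1.27 to 1.41), and EREG 1.14-fold higher (1.07 to 1.22), so the neighbouring ligand genes lay on opposite sides of 1. The ratio was 1.11 (1.006 to 1.23) for MET. For TGFA it was 1.17 (0.959 to 1.42), for ERBB3 1.26 (0.943 to 1.68), for ERBB2 1.05 (0.909 to 1.22), for HBEGF 0.877 (0.640 to 1.18) and for FGFR4 0.883 (0.768 to 1.011), all with intervals that include 1. The median difference over all HCT116 genes was 0.01, and 7 members lay above 0 and 3 below.

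RKO had 8.75 FPKM of MET mRNA (WT) and 3.14 FPKM (OE), from about 415 and 143 fragments, a 2.79-fold lower level (2.30 to 3.39). In bulk RNA, fewer cells that express a gene and less RNA per cell cannot be told apart. Its log2 difference was -1.24. The authors' deposited table gave it p = 0.0424 with q = 1. EGFR was 1.80-fold lower (1.35 to 2.42) and IGF1R 1.45-fold lower (1.101 to 1.97), with log2 differences of -0.54 and -0.34 that did not reach 2-fold. AREG, under the expression minimum, was 4.47-fold lower (1.61 to 19.3), from about 20 and 4 fragments. The ratios of ERBB2 (0.914, 0.797 to 1.05), ERBB3 (1.08, 0.783 to 1.497), TGFA (1.14, 0.769 to 1.71), HBEGF (0.906, 0.698 to 1.17) and FGFR4 (0.857, 0.649 to 1.14) had intervals that include 1. For EREG no ratio was taken, as both RKO libraries were under the limit of 3 fragments.

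**Figure D3:**
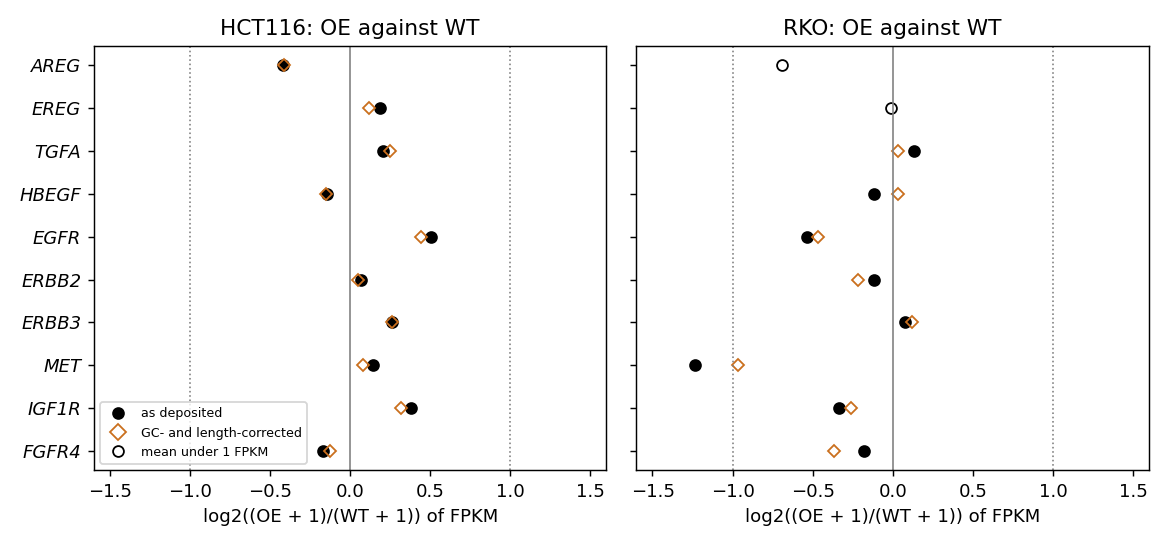
Log2 difference between OE and WT for the 10 genes in each line, with filled circles for deposited values, open circles for genes with a mean under 1 FPKM, diamonds for values corrected for GC content and transcript length, and dotted lines at a 2-fold difference. MET in RKO stands at -1.24 as deposited and at -0.96 after correction, and no other filled circle in either panel passes a dotted line.

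Differences in RKO moved with base composition, and this touches MET. Across 10971 genes the log2 difference in RKO rose with the GC content of the transcripts (Spearman rho 0.535 across genes, which are not independent replicates), against -0.113 across 11305 genes in HCT116. The median RKO difference was -0.37 in the tenth of genes lowest in GC and 0.19 in the tenth highest. MET transcripts averaged 45.1% GC, against a median of 50.4% over RKO genes. Corrected for both GC content and transcript length, the MET difference was -0.96, just under the 2-fold limit, that of EGFR was -0.47 and that of IGF1R -0.26, and FGFR4, with 63.8% GC, moved from -0.18 to -0.37. Epithelial markers summed to 50.0 FPKM in RKO WT and 85.7 in RKO OE, led by KRT18 (37.4 and 71.8), while EPCAM stood at 3.08 and 2.02. Mesenchymal markers summed to 12.6 and 5.75, led by VIM and ZEB1. Their part in the MET result was not tested.

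**Figure D4:**
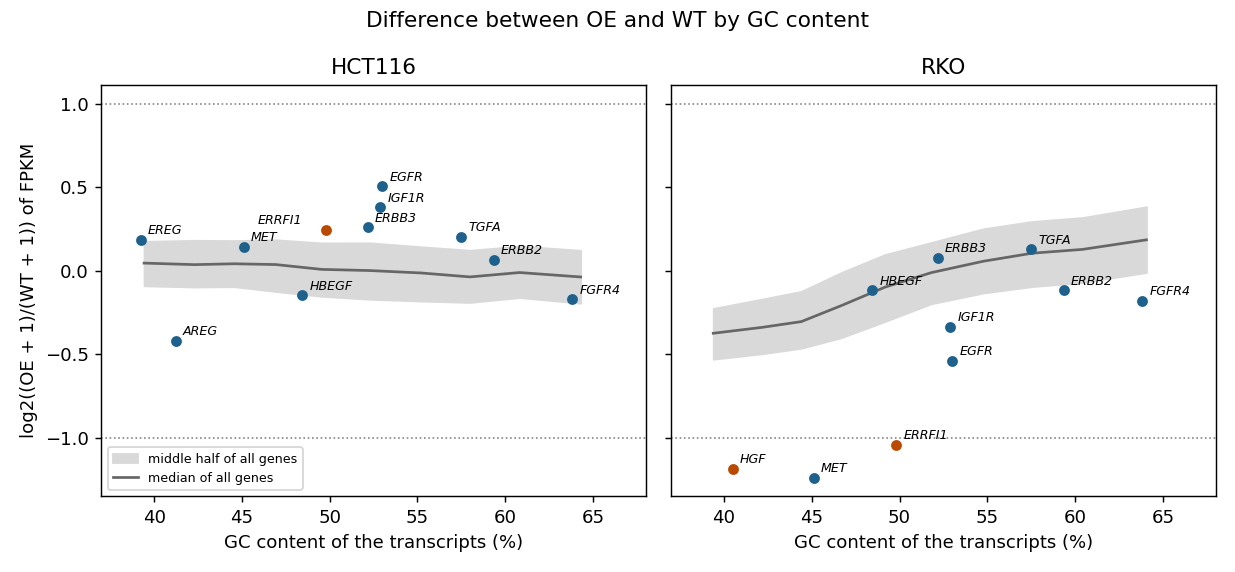
Log2 difference between OE and WT against the mean GC content of a gene's transcripts in each line; the line is the median of all genes in 10 equal bins, the band the range from the lower to the upper quartile, blue points the members and orange points HGF and ERRFI1. In RKO the band climbs with GC content and MET, HGF and ERRFI1 lie under it at -1.24, -1.18 and -1.04, while in HCT116 the band is nearly flat.

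Both lines were then put in 1 fit. limma with line as a block, Benjamini-Hochberg adjustment and 1 residual degree of freedom called 0 of the 10 members, against 14 of 11525 genes (0.121%). At an unadjusted p under 0.05 it found 1 member, AREG, against 404 genes (3.51%). No member passed that limit with quantile normalization, with correction for GC content and length, or without the block for line. The SEs and p-values rest mostly on variance shared across genes, with 12.0 prior degrees of freedom beside that 1 residual degree. AREG had a log2 difference of -0.56 (SE 0.23, limma, Benjamini-Hochberg adjusted p = 1.0). It was lower in OE in both lines, in RKO from about 20 and 4 fragments. MET had -0.55 (SE 0.30, limma adjusted p = 1.0), an average of 0.14 in HCT116 and -1.24 in RKO. EGFR had -0.02 (SE 0.28), the average of 0.51 and -0.54, and IGF1R 0.02 (SE 0.25), that of 0.38 and -0.34. These averages stand for neither line, and with 1 library per group the difference between the lines could not be tested.

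The genes that work with MET, FGFR4 and IGF1R showed which ligands each line transcribed. HGF stood at 24.5 FPKM in RKO WT and 10.2 in RKO OE, and at 0.0276 and 0.00988 in HCT116, about 1 and 0 fragments. RKO therefore held mRNA for both MET and its ligand, and both were called lower in OE. HGF was 2.40-fold lower (2.14 to 2.69), with a log2 difference of -1.18 that was -0.79 after correction for GC content, its transcripts averaging 40.5% GC. ST14, which encodes the protease matriptase that can activate HGF, stood at 63.1 and 57.2 FPKM in HCT116 and at 0.0237 and 0.0124 in RKO. The matching inhibitor genes were SPINT1, at 36.4 and 36.7 FPKM in HCT116 and 30.1 and 32.8 in RKO, and SPINT2, at 58.4 and 46.4 against 2.84 and 3.01.

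FGF19 stood at 24.3 and 29.7 FPKM in HCT116 and was listed at the floor of 0.0001 in both RKO libraries. There 3 fragments are worth 0.0599 and 0.0624 FPKM. HCT116 thus held mRNA for both FGFR4 and FGF19. The co-receptor gene KLB was at most 0.0477 FPKM in any library. IGF2, a ligand of IGF1R, stood at 6.20 and 6.43 FPKM in HCT116 and at 0.0273 and the floor in RKO. Its exons overlap other annotated IGF2 and INS-IGF2 entries, all listed at the floor. IGF1 was listed at the floor in all 4 libraries. IGFBP6, which encodes an IGF-binding protein and had the highest mean of the group over the 4 libraries, stood at 21.8 and 13.3 FPKM in HCT116 and at 90.4 and 121 in RKO. Of the 20 genes in this group, 8 were above the minimum in HCT116 and none was called, and 6 in RKO, of which HGF was called. Their median differences were 0.03 in each line, and their means, -0.06 in HCT116 and -0.17 in RKO, had the opposite sign. Corrected for GC content and length, the RKO median turned negative, at -0.10.

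**Figure D5:**
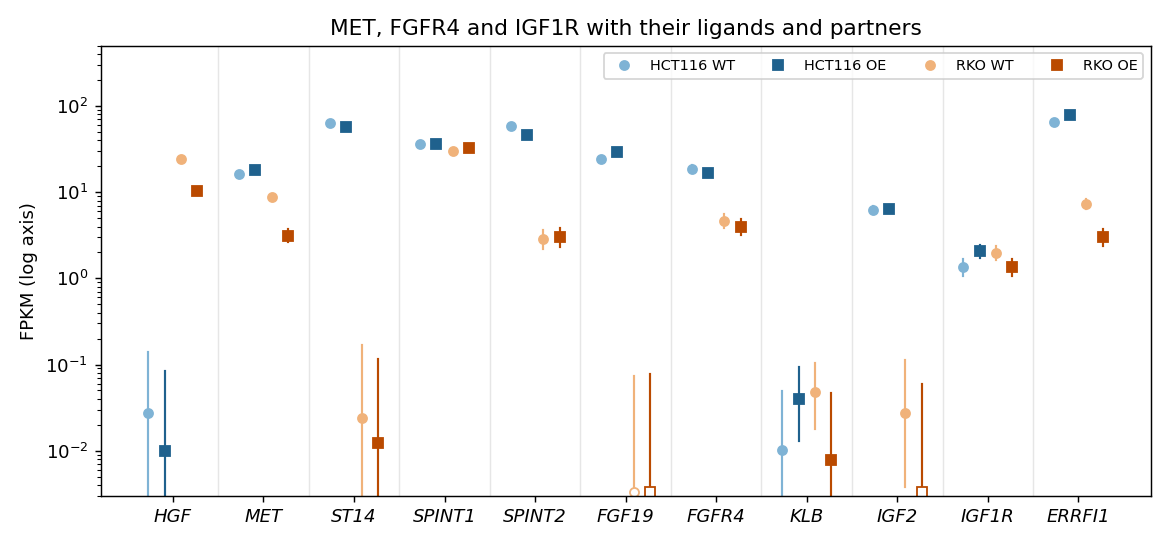
FPKM on a log axis for MET, FGFR4 and IGF1R with ligands and partners in each library; bars are 95% counting intervals and open symbols genes listed at the floor of 0.0001 FPKM. HGF is near 0 in HCT116 and at 24.5 and 10.2 in RKO, whereas FGF19, ST14 and IGF2 show the reverse.

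Other parts of the pathway were described by 8 gene lists, 144 genes in all. The lists were chosen with earlier results of these data known, so their shares of called genes are not a test. In HCT116 87 of them were above the minimum and 2 were called, SPRY4 and DUSP6, both higher, which is 2.30% against 2.05% of all genes. In RKO 81 were above the minimum and 6 were called, 2 higher and 4 lower, which is 7.41% against 3.25% of all genes. With correction for GC content and length 3 of the 81 list genes were called there, against 315 of the 10971 genes corrected. FRMD8 and RNF41 were higher and DUSP6 lower. Of the 8 further receptor and ligand genes of the ERBB family, among them the neuregulins, none reached a mean of 1 FPKM in either line. The highest means over the 4 libraries were those of BTC and NRG2, at most 0.710 and 0.436 FPKM. Sheddases and their controllers had median differences of 0.21 over 7 genes in HCT116 and -0.29 over 6 in RKO, against 0.01 and -0.09 over all genes. FRMD8, which encodes a stabiliser of the sheddase complex of ADAM17, was called in RKO, at 12.5 FPKM in OE against 3.498 in WT, and stood at 9.68 and 8.48 in HCT116. ADAM9 had the highest mean of the list over the 4 libraries, although FRMD8 was higher in RKO OE. ADAM17, the main sheddase of these ligands, stood at 2.11 and 3.19 FPKM in HCT116 WT and OE and at 3.80 and 2.03 in RKO.

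Genes that dampen the receptors had medians of 0.13 over 13 genes in HCT116, none called, and -0.16 over 13 in RKO, where 2 were called. Corrected for GC content and length, the RKO median was 0.01. ERRFI1, a feedback inhibitor of the EGFR family kinases, stood at 7.25 FPKM in RKO WT and 3.01 in OE, a 2.41-fold lower level (1.87 to 3.12). Its log2 difference was -1.04, and -0.93 after correction for GC content and length. In HCT116 it stood at 66.1 and 78.6 FPKM, 9.12-fold (7.94 to 10.6) above RKO in WT. PTPN1, a phosphatase gene, stood at 20.4 and 22.2 FPKM in HCT116 and at 57.2 and 53.7 in RKO. RNF41, which encodes a ubiquitin ligase acting on ERBB3, was 2.40-fold higher in RKO OE (2.06 to 2.81), at 15.0 against 6.24 FPKM. CBLC stood at 12.8 and 13.8 FPKM in HCT116 and at the floor in both RKO libraries.

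The adaptors and the RAS-RAF-ERK core had medians of -0.01 over 14 genes in HCT116 and -0.21 over 17 in RKO, the latter -0.06 after correction. RASA1, which encodes a RAS GTPase-activating protein, was the gene called there, 2.88-fold lower in RKO OE (2.41 to 3.48), with a log2 difference of -1.23 that was -0.88 after correction. Its exons overlap those of CCNH on the opposite strand. SHC1, an adaptor gene, and MAP2K1, which encodes a kinase that activates ERK, had the highest means of the list over the 4 libraries, at 29.2 to 95.5 and at 20.5 to 29.9 FPKM over the 4 libraries. No gene of the PI3K-AKT core was called, with medians of 0.05 and -0.10 over 11 genes in each line. In RKO its mean was -0.01 and its median 0.23 after correction. PIK3R2 (11.3 to 22.0 FPKM) and AKT1 (10.0 to 14.7 FPKM) had its highest means over the 4 libraries.

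None of 42 other receptor tyrosine kinase genes was called, with medians of 0.09 over 20 genes in HCT116 and -0.06 over 14 in RKO (-0.02 after correction). AXL, a receptor for GAS6, stood at 12.2 and 10.5 FPKM in HCT116 and at 120 and 113 in RKO, a ratio of RKO WT to HCT116 WT of 9.82 (9.02 to 10.7). EPHA2 stood at 43.1 and 53.9 FPKM in HCT116 and at 72.5 and 82.8 in RKO. Genes that respond to ERK had medians of 0.22 in HCT116 and -0.14 in RKO, over 14 genes each, the RKO median being -0.08 after correction. DUSP6, an ERK phosphatase gene, was called in both, 2.08-fold higher in HCT116 OE (1.93 to 2.25) and 2.91-fold lower in RKO OE (2.65 to 3.21). Its exons overlap AC024909.2 on the opposite strand. SPRY4, a feedback inhibitor gene of the pathway, stood at 2.89 and 28.5 FPKM in HCT116 WT and OE, 9.87-fold higher (8.22 to 11.9), and at 53.3 and 35.8 in RKO.

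The 4-library pattern of EGFR, higher in OE in HCT116 and lower in OE in RKO, was compared with 5571 protein-coding genes whose mean reached 5 FPKM. The 3 closest are named here. By Euclidean distance between centred log2(FPKM + 1) values over the 4 libraries these were SEL1L3 (0.10), ADAM9 (0.15) and DNAJC1 (0.15). ADAM9, a further ADAM protease gene, stood at 10.4 and 14.8 FPKM in HCT116 (WT, OE) and at 7.24 and 5.09 in RKO.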

How the data were processed

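Messenger RNA was measured in 4 libraries, 1 for each group, grouped by sample title. The deposited tables, 1 for each line, give FPKM values made by the authors, with genes without signal at 0.0001. The deposited fold and log2 columns, with each p-value and q-value, are the authors' comparison, per the file headers, by a test not given in the sources used here. Tools listed in the submitters' processing notes are StringTie 1.3.0, HISAT2 2.0 and Bowtie 0.12.2, beside a mouse build. The identifiers are human, so the build used is not settled. Strand use is not given.

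Positions, lengths and base composition of transcripts were read from GENCODE release 29 (GRCh38), which holds 58394 of 60612 identifiers. Fragments were estimated as FPKM times mean transcript length over the value of 1 fragment. The commonest low value in genes with 1 exon of at least 400 nucleotides was taken as that value. Of the low values there, 43.4% to 44.7% lay within 2% of a step of 0.5 fragment, so the step is approximate. Ratio intervals are exact conditional (Clopper-Pearson) and level intervals exact Poisson. Fragments carry no molecular identifiers and may not be independent. PCR copies would make the intervals too narrow.

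Differences used a pseudocount of 1 FPKM and an expression minimum of 1 FPKM (mean per line). The fit across lines, limma 3.58.1 under R 4.3.3, took log2(FPKM + 1) with line as a block, a trended prior and two-sided p-values adjusted over the 11525 genes whose mean reached 1 FPKM. This takes the 2 lines as replicates. The labels do not say whether cultures were separate. The variance behind each SE and p-value came mostly from all genes fitted, with 12.0 prior degrees of freedom against 1 residual. These p-values do not measure how separate cultures would vary. Correction for GC content and length used a smooth (loess) fit over all genes tested. The limma fit, the ratio intervals and the fragment step were tested on simulated data. The changes simulated for the limma fit were the same in both lines and held no trend with GC content. The correction for GC content and length was not tested in this way. Members, lists and named genes were chosen with earlier results of these data known. The named genes are the 10 members, list genes that were called, otherwise the 2 of a list with the highest mean over the 4 libraries, and the 3 genes nearest to EGFR. Other list genes were named after their values were seen (for example ADAM17, ST14, SPINT2, FGF19, KLB, IGF1, IGF2 and CBLC).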

Additional observations from a re-analysis of the deposited data

Results flagged for a closer look

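For EGFR, MET and IGF1R the OE library was higher than WT in HCT116 and lower in RKO, with counting intervals clear of a ratio of 1 in both lines. The log2 difference in RKO minus that in HCT116 was -1.04 for EGFR, -1.38 for MET and -0.72 for IGF1R. With 1 library per group the difference between the lines was not tested. EGFR and IGF1R, with mean transcript GC contents of 53.0% and 52.9%, and MET, with 45.1%, kept these opposite signs after correction for GC content and length, at 0.44, 0.32 and 0.08 in HCT116 and -0.47, -0.26 and -0.96 in RKO. No group is large enough for a check of outlying samples.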

How the results depend on the processing

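The count of members called in HCT116 was 0 and the limma count of members by adjusted p was 0 under every alternative run. In RKO, MET was called under every alternative except correction for GC content and length, which left 0 members called there and 3 list genes in place of 6. Its log2 difference ranged from -0.96 with that correction to -1.48 with a pseudocount of 0.01. Counts over all genes moved more. With pseudocounts of 0.1 and 0.01 they were 419 and 450 in HCT116 and 629 and 688 in RKO, and with a minimum of 5 FPKM they were 97 and 159. After quantile normalization RKO had 154 higher and 150 lower. The limma count of 14 became 7 with a pseudocount of 0.1, 3 with a minimum of 5 FPKM, 0 with no filter, 1 with quantile normalization, 26 after rescaling without mitochondrially encoded genes, 0 without the block for line and 1 after GC and length correction. Where these counts were 0, 674 genes (no filter) and 36 (no block) had an unadjusted p under 0.05. The causes were not tested. No sign of a called value reversed. In HCT116, AREG moved from -0.42 to -0.31 with quantile normalization, and in RKO HGF from -1.18 to -0.79 with GC and length correction. No paired analysis was possible because the labels give no replicate numbers to pair by, beyond the line itself, which is the block in the limma fit. Leaving out a library leaves a line with no contrast. Depth limits AREG and EREG in RKO, and HGF in HCT116, where values rest on 20 fragments or fewer.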

Other observations

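BTC, the next EGFR ligand gene after the 4 members, stood at 0.391 and 0.710 FPKM in HCT116 (WT, OE) and at 0.416 and 0.247 in RKO, from about 13, 25, 15 and 8 fragments. It was under the expression minimum in both lines. Among list genes, CBL, which encodes the ubiquitin ligase that marks EGFR and MET for degradation, stood at 4.16 and 6.38 FPKM in HCT116 WT and OE and at 6.75 and 5.30 in RKO WT and OE. HRAS stood at 27.3 and 16.0 FPKM in HCT116 and at 14.4 and 21.3 in RKO. None of these 3 was called, and CBL and HRAS were named after their values were seen.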
